A study of Danio rerio with 6 samples.

Results

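The 3 control libraries described here come from cells sorted out of the posterior hindbrain of zebrafish embryos that carried Tg(isl1:Kaede) and received only the solvent DMSO. They are the libraries whose title holds DMSO (replicates 1, 4 and 10), 3 of the 6 libraries of the study. Kaede is a fluorescent protein, and isl1 regulatory DNA drives it here in cranial motor neurons. The genotype label is the same for all 3 libraries, and so are the 0.2 mM PTU, which blocks pigment formation, and the DMSO added from 24 hours post fertilization (hpf). Embryos were collected at 38 hpf, and between 4500 and 10000 living, fluorescent cells made up a library. The cells were therefore not untreated in the strict sense, since both PTU and DMSO were in the water. The labels name the cells as vagus motor neurons. The sort itself took any fluorescent cell of the dissected tissue, and the labels give neither the number of embryos pooled nor whether the libraries came from separate clutches. SD values below thus measure the spread between these libraries, which may be technical in part.

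Vagus motor neurons lie in the caudal hindbrain and send their axons to the muscles of the pharyngeal arches and, as visceral motor neurons, to the viscera. Branchiomotor and visceral motor neurons express Isl1 and Tbx20, while spinal somatic motor neurons use Mnx1, Lhx3 and Lhx4 with Isl1. Hox genes record position along the hindbrain and spinal cord, with higher paralog groups expressed farther back. Motor neurons release acetylcholine.

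The libraries held 20598596, 23411427 and 20432411 counted fragments (replicates 1, 4 and 10). Of the 32520 genes listed, 14600 (44.9%) reached at least 1 CPM (the count scaled to a library total of 1000000) in each library. That share is the background for each count of detected genes below. No count was found in any library for 6786 genes. Levels below are CPM per kilobase of exon (CPM per kb) unless CPM is named, because only values per length can be compared between genes. The detected genes had a median of 7.39 CPM per kb, their 90th percentile was 59.3 and their 99th was 333. The mitochondrial genome took 1.52% to 1.98% of a library. Chi-square per degree of freedom between pairs of libraries was 15.9 to 38.4, so all 3 differed by more than counting noise. Each library was counted as a replicate, though this excess does not show that the libraries came from separate clutches. The correlation of log2 CPM across genes, which are not independent replicates, was 0.983 between replicates 4 and 10, 0.972 between 1 and 4 and 0.965 between 1 and 10. Replicate 1 therefore stood farther from the other two than they did from each other. No test was run, because a single group is described and an exact two-sided sign-flip test of 3 libraries cannot give a p-value under 0.25. Orders between genes are instead given by how many of the 3 libraries show them.

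The 3 genes that mark branchiomotor neurons were all high. isl1a, a LIM homeobox gene on chromosome 5 (GRCz11, 40728613 to 40734045, minus strand), stood at 1030, 725 and 787 CPM per kb in replicates 1, 4 and 10 (847 ± 161, SD, n = 3). By its mean over the deposited length it was the highest of 835 transcription factor genes and the 35th of all nuclear genes. That rank does not hold on every scale, since onecut1 was higher in replicate 10, phox2bb was higher in CPM (2832 against 1951), and sox11b would lead over exon length that no other gene shares. phox2bb, a paired-like homeobox gene on chromosome 14 (17064126 to 17072736, minus strand), stood at 673, 566 and 682 CPM per kb (640 ± 64.7). It was below isl1a in each library, by 0.39 ± 0.21 on the log2 scale. tbx20, a T-box gene on chromosome 16 (42509011 to 42523744), stood at 113, 97.9 and 86.4 CPM per kb (99.2 ± 13.5), and its 3 values were ordered as replicate 1, then 4, then 10. In these bulk libraries, fewer cells of a type and less RNA per cell cannot be told apart, here and for every level below.

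All 13 genes of the branchiomotor neuron list were detected, and their summed level was 3642, 2735 and 3133 CPM per kb. Replicate 1 was the highest for 11 of the 13. The share of all detected genes that are highest or lowest in each library is not given here. Counts of this kind, here and below, therefore cannot be told from a difference of the whole library. phox2a, the paralog of phox2bb, stood at 323 ± 59.3 CPM per kb, below phox2bb (log2 ratio of phox2bb over phox2a 1.00 ± 0.14, higher in 3 of 3 libraries). The third paralog, phox2ba, was far lower and uneven at 20.5, 32.0 and 9.60 CPM per kb. A gene named linc.phox2bb in RefSeq, which lies beside phox2bb on chromosome 14 (17087349 to 17097142), stood at 276, 192 and 212 CPM per kb. nkx6.1 and nkx6.2, homeobox genes of ventral neural progenitors and motor neurons, were at 293 ± 50.2 and 24.5 ± 1.78 CPM per kb. tbx2b and tbx3a, T-box genes, reached 324 ± 35.9 and 83.8 ± 5.11 CPM per kb. prph, which encodes the intermediate filament peripherin, stood at 362, 258 and 360 CPM per kb.

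The spinal motor neuron list, summed over 10 genes, was at 268 ± 46.5 CPM per kb, below the branchiomotor list by 3.57 ± 0.05 on the log2 scale in 3 of 3 libraries. The branchiomotor list alone holds isl1a, whose regulatory DNA drove the sorted label and which spinal motor neurons also use. It alone also holds the acetylcholine genes chata, slc18a3a and slc5a7a. The ratio thus depends on the choice of lists and is no measure of cell identity. Most of the spinal sum was 2 genes, isl2a at 143 ± 36.1 and lhx4 at 80.4 ± 8.77 CPM per kb. mnx1 and lhx3, which also serve spinal somatic motor neurons, were below the median of the detected genes. mnx1 was at 3.20 ± 0.58 CPM per kb and lhx3 at 0.97 ± 0.23, which left lhx4 above lhx3 by 6.39 ± 0.44 on the log2 scale. olig2, a progenitor gene of spinal motor neurons, was at 9.80 ± 3.98 CPM per kb. isl2b, the copy of isl2a, was at 6.79 ± 1.04, lower in 3 of 3 libraries.

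**Figure D1:**
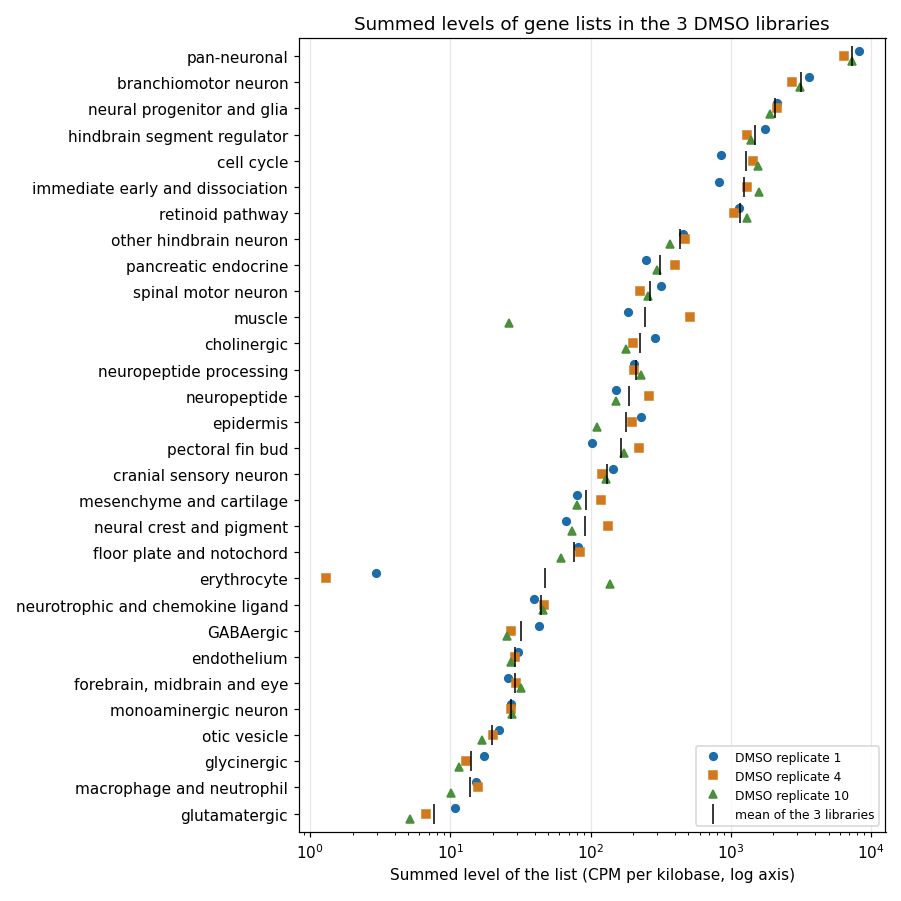
Summed level of each of 30 gene lists (x axis, CPM per kilobase, log scale) in the DMSO libraries, with one symbol per replicate (1, 4 and 10) and a bar for their mean. The branchiomotor list lies above the spinal motor neuron and cranial sensory neuron lists in every library, while the muscle and erythrocyte lists are spread widest, from 26.1 to 517 and from 1.28 to 138 CPM per kb.

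The markers of the labelled cell type were thus all present, and genes of other cells were present beside them. Among the 25 genes shared by most neurons, the 24 matched ones summed to 8229, 6489 and 7306 CPM per kb. They were led by tubb5 (tubulin, 1599 ± 120 CPM per kb), stmn1b (a microtubule regulator, 1226 ± 354) and tuba1c (1023 ± 29.7). elavl3, an RNA-binding protein gene of new neurons, was at 763 ± 106 CPM per kb, and gap43, of growing axons, was at 603 ± 67.4. The neural progenitor and glia list followed at 2141, 2137 and 1917 CPM per kb, below the neuronal list by 1.82 ± 0.19 on the log2 scale. Its highest members were fabp7a, a fatty acid binding protein gene of radial glia, at 1210, 937 and 859 CPM per kb, and sox3, a progenitor factor, at 261, 407 and 318. Other members were lower over the deposited length, with id1 at 260 ± 46.4 and sox19a at 165 ± 32.7. Over unshared exon length id1 was at 508 CPM per kb, above sox3. Lower still were sox2, a progenitor factor, at 33.2 ± 3.28 and gfap, the glial filament gene, at 26.1 ± 3.68. slc1a3b, a glutamate uptake gene of glia, was at 19.0, 4.95 and 0.62 CPM per kb. Beyond the list, and named after their values were seen, slc1a3a, the copy of slc1a3b, was at 152 CPM per kb and glulb, a glutamine synthetase gene of glia, at 209. All 16 cell cycle genes were detected. pcna, the sliding clamp of DNA replication, stood at 210, 417 and 485 CPM per kb, and 15 of the 16 were lowest in replicate 1.

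Markers of cranial sensory neurons, which isl1 reporters can also label, summed to 131 ± 11.7 CPM per kb over 18 matched genes. The branchiomotor list, which holds isl1a itself, was 4.59 ± 0.08 higher on the log2 scale in 3 of 3 libraries. eya1 and neurog1 made up most of the sensory sum at 54.6 ± 7.78 and 37.8 ± 1.59 CPM per kb. The channel gene trpa1b was at 0.06 ± 0.05 CPM per kb, and POU4F3, as the name table gives it, had no count. Transcription factors of other hindbrain neurons summed to 434 ± 58.5 CPM per kb, with 21 of 22 matched genes detected. ptf1a, lhx5, dbx1a, lbx1a and en1b, which mark progenitors and interneurons of the dorsal and ventral hindbrain, were each between 37.7 and 60.8 CPM per kb on average, and 17 of the 21 were lowest in replicate 10. The monoaminergic list summed to 27.2 ± 0.42 CPM per kb, of which dbh, the enzyme gene for noradrenaline, gave 19.1 ± 0.97. Forebrain, midbrain and eye genes summed to 28.9 ± 3.10 CPM per kb over 23 matched genes, of which 7 were detected.

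Erythrocyte and muscle markers differed most among libraries of all 30 lists. Globin genes appeared in replicate 10 almost alone. hbae1.3, an embryonic alpha globin gene, had 0.26, 0 and 60.1 CPM per kb, and the erythrocyte list summed to 2.96, 1.28 and 138. Muscle genes were highest in replicate 4 and lowest in replicate 10. actc1b, a muscle actin gene, stood at 67.6, 188 and 6.35 CPM per kb, and the list summed to 186, 517 and 26.1. The epidermis list summed to 228, 196 and 111 CPM per kb. Its keratin genes krt5 and krt91 fell from 29.9 and 20.4 in replicate 1 to 0.28 and 0.03 in replicate 10, while krt8 was 44.5, 83.3 and 84.9. Macrophage and endothelial lists were low in all 3 libraries, at 13.7 ± 3.21 and 28.9 ± 1.71 CPM per kb. Of 9 matched genes in each list, 1 macrophage and 3 endothelial genes were detected. ptprc of leukocytes and cdh5 of endothelium were at 0.05 ± 0.07 and 0.07 ± 0.13. kdrl and cldn5b of the endothelial list were higher, at 14.1 ± 1.49 and 11.2 CPM per kb. The macrophage genes mpeg1.1, mfap4 and mpx and the endothelial genes pecam1, fli1a and etv2 were not matched by symbol.

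The 10 most abundant genes took 6.30% ± 0.28 of all counts and 83 genes above 1000 CPM took 19.3%. Per length, ptmab, a prothymosin alpha gene, led the nuclear genes at 5495, 4878 and 5451 CPM per kb. hmgb3a, a high mobility group gene of chromatin, followed at 2122, 2855 and 2659. Of the 20 highest, 6 were high mobility group genes (hmgb3a, hmgn2, hmgb2b, hmgn6, hmga1a and hmgb1b). The 20 also held the 2 cytoplasmic actin genes actb1 and actb2, the variant histone gene h2ax1, the RNA-binding protein genes khdrbs1a and hnrnpa0l, the nucleotide carrier gene slc25a5, the clone-named si:ch211-222l21.1 and the nuclear non-coding RNA malat1. Growth-cone and microtubule genes completed the set, with marcksl1b at 1601 ± 101, tmsb4x at 1368 ± 129 and stmn1b and tubb5 as above, beside the second prothymosin gene ptmaa at 1349 ± 124 CPM per kb. In CPM, malat1 was the highest nuclear gene at 12056 ± 2055, ahead of ptmab because its transcript is longer. The highest gene of all was the mitochondrial 16S ribosomal RNA at 8264, 6348 and 7426 CPM per kb. It was followed within that genome by MT-CO2 (1810 ± 128), MT-CO3 (1196 ± 142), MT-CO1 (898 ± 114) and MT-CYB (488 ± 96.9), all parts of the respiratory chain. The 85 cytosolic ribosomal protein genes summed to 13270, 14936 and 16496 CPM per kb, and 83 of them were detected.

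Among transcription factors, 540 of 835 (64.7%) were detected, with a median of 9.88 CPM per kb. The 25 highest took 41.5% to 45.1% of the summed level of the class. onecut1, a Cut homeobox gene of new motor neurons and other neurons, stood at 633, 637 and 804 CPM per kb. The order among the first 3 was not stable. isl1a was above onecut1 in 2 of 3 libraries, and onecut1 was above phox2bb in 2 of 3. Its relatives onecut3b and onecutl were at 225 ± 65.4 and 80.3 ± 14.2 CPM per kb. sox11a and sox11b, SoxC genes of new neurons, were at 511 ± 76.4 and 446 ± 42.9. The annotation assigns 68.3% of the exon bases of sox11b to another gene as well, so its value is uncertain. sox3, SOX4 (the name table's symbol) and sox19a stood at 329 ± 73.5, 196 ± 48.1 and 165 ± 32.7 CPM per kb.

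Genes of the neuronal differentiation programme were also in the upper ranks. insm1a, a zinc finger gene of differentiating neurons, was at 241 ± 27.9 CPM per kb. The basic helix-loop-helix genes nhlh2 and neurod4 were at 222 ± 18.7 and 202 ± 21.2. The POU genes pou3f3b, pou3f1 and pou3f2b were at 120 ± 4.67, 93.6 ± 2.87 and 82.4 ± 17.5 CPM per kb. id1, which encodes an inhibitor of such factors that does not bind DNA, was at 260 ± 46.4, with 48.8% of its exon bases shared with another gene. atf4b, a stress-linked bZIP gene, was at 309, 404 and 482 CPM per kb. nr2f1a, an orphan nuclear receptor gene, was at 253, 182 and 181.

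**Figure D2:**
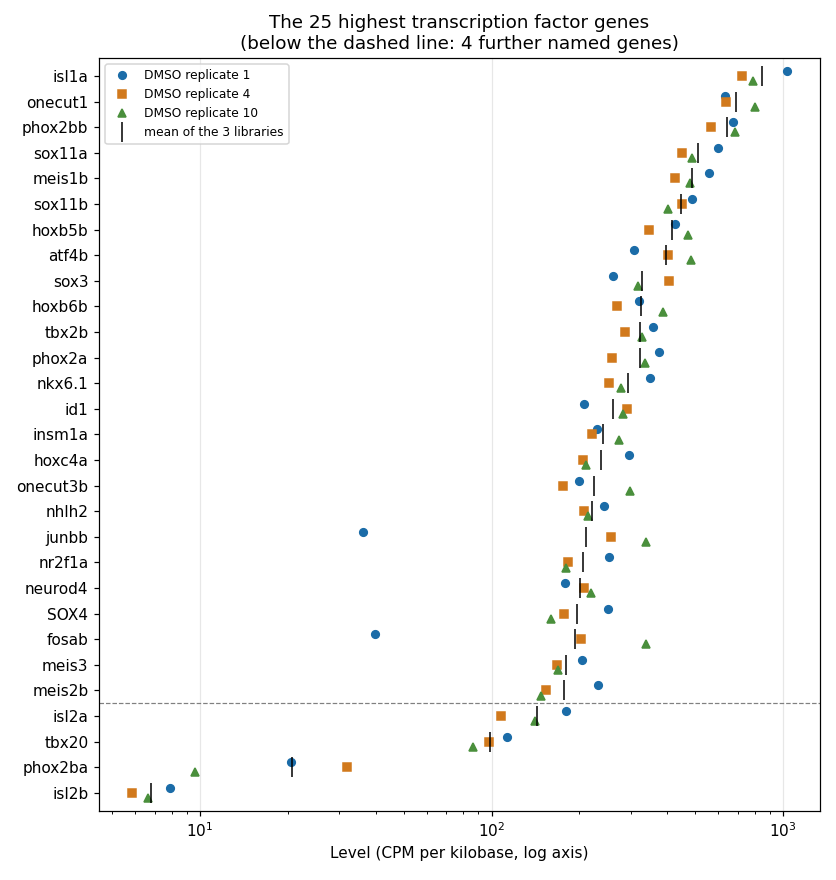
Level (x axis, CPM per kilobase, log scale) of the 25 highest transcription factor genes and, below the dashed line, of isl2a, tbx20, phox2ba and isl2b, with one symbol per DMSO replicate and a bar for the mean. Most genes have their 3 symbols close together, while junbb (36.1, 257 and 340) and fosab (39.7, 202 and 339) lie apart in replicate 1.

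The TALE homeobox genes, whose products bind DNA together with Hox proteins, were nearly all expressed, with 25 of 28 detected. meis1b led at 556, 426 and 479 CPM per kb, followed by meis3 (180 ± 20.7), meis2b (177 ± 46.8) and pbx4 (170 ± 25.3). meis1a, the copy of meis1b, stood at 18.7 ± 5.19 and was lower in 3 of 3 libraries. The segmental gene egr2b, which patterns rhombomeres in front of the vagal region, was at 0.50 ± 0.48 CPM per kb. cdx4, a gene of the posterior body axis, was at 0.05 ± 0.04. These low values do not stand for hindbrain segment regulators as a list. Of its 20 genes 15 were detected, with a sum of 1497 ± 238 and a median member of 17.6 CPM per kb.

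Per kilobase of exon, hox levels were highest in paralog groups 4 to 6. Of 48 hox genes matched by symbol, 35 were detected and 4 had no count. All 25 genes of groups 1 to 8 were detected, against 10 of 23 in groups 9 to 13. Of all genes listed, 44.9% were detected, so the count in groups 9 to 13 was near the share over all genes. The summed hox level was 2562, 2016 and 2373 CPM per kb. Group 5 held 31.5% of it at 730 ± 118 CPM per kb, group 6 held 23.0% at 532 ± 76.7 and group 4 held 19.9% at 461 ± 74.1. The group 4 sum covers 3 genes, none of them from the hoxaa cluster. Group 3 was at 270 ± 42.8, group 8 at 107 ± 26.9, group 1 at 68.7 ± 8.04 and group 2 at 29.3 ± 1.89 CPM per kb. Group 7 has a single gene in this annotation, hoxb7a, which stood at 2.00 ± 0.88, so the level between groups 6 and 8 had a gap. Groups 9 to 13 were between 14.7 and 47.6 CPM per kb on average.

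The 2 highest hox genes per kilobase were neighbours on chromosome 12. hoxb5b (27129659 to 27131735) stood at 426, 348 and 471 CPM per kb, and hoxb6b (27127139 to 27128768) at 320, 270 and 387. hoxb5b was above hoxb6b in each library, by 0.35 ± 0.07 on the log2 scale, and both were lowest in replicate 4. The 4 genes of the hoxbb cluster made up 35.5% of the summed hox level per kilobase. In CPM, hoxb5b was also the highest at 675, but hoxa3a (573) and hoxb3a (477) stood above hoxb6b (389). The order of hox genes and of paralog groups thus depends on the division by exon length. The duplicates hoxb5a and hoxb6a in the hoxba cluster were at 112 ± 28.9 and 74.6 ± 7.34 CPM per kb, lower than their counterparts in 3 of 3 libraries. hoxc4a followed the leading pair at 297, 205 and 212, ahead of hoxb4a at 197, 156 and 176 CPM per kb. hoxb5a, hoxa3a, hoxc5a, hoxa5a and hoxc6b had means between 99.5 and 112, with SDs of 16.6 to 30.3, so their order among themselves was within the spread. Of the exon bases of hoxa5a, 30.3% are shared with another gene, so its value is uncertain. hoxb6a, hoxb3a and hoxd3a came next at 74.6, 72.5 and 66.5. hoxb1a stood at 18.6 ± 1.78 with 55.3% of its exon bases shared with another gene.

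**Figure D3:**
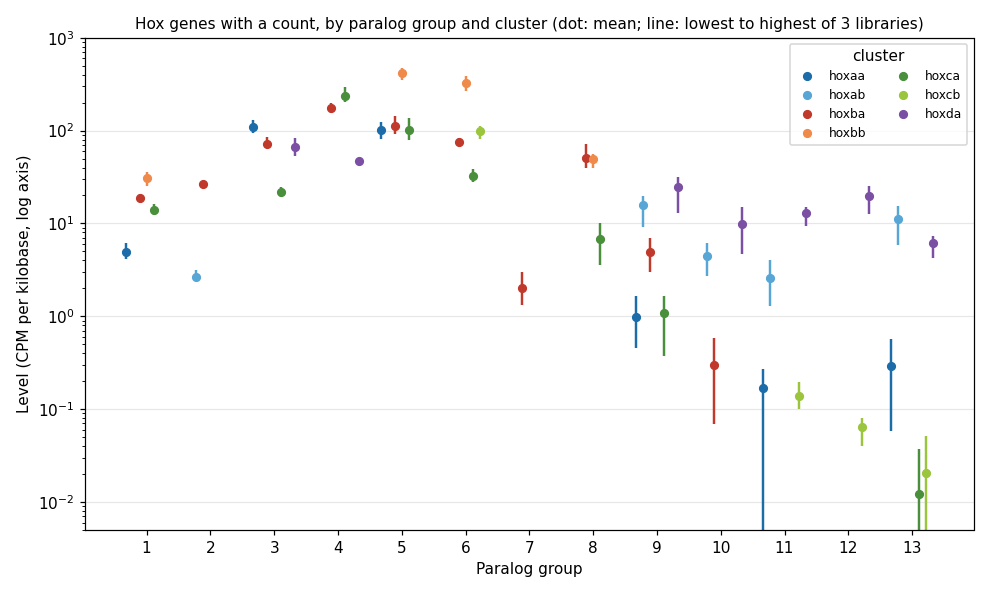
Level (y axis, CPM per kilobase, log scale) of each hox gene with a count, placed by paralog group (x axis) and coloured by cluster, with a dot at the mean and a line from the lowest to the highest of the DMSO libraries. Levels are highest in groups 4 to 6, and the single group 7 gene lies at 2.00. Within each of groups 9 to 13 the hoxda and hoxab genes lie above those of the other clusters in the same group.

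Within groups 9 to 13, 9 of the 10 detected genes belonged to the hoxab and hoxda clusters, and these 9 moved together among libraries. Their summed level was 63.0, 134 and 127 CPM per kb, lowest in replicate 1. hoxd9a, for example, stood at 13.1, 31.4 and 30.1 and hoxa13b at 5.84, 15.3 and 12.2. The tenth, hoxb9a, ran the other way at 7.01, 4.59 and 3.02 CPM per kb. In groups 1 to 8, 19 of 25 genes were highest in replicate 1, again with no share over all detected genes beside it. Genes of the pectoral fin bud, a list chosen after these values were seen, followed the posterior hoxab and hoxda genes, with a sum of 102, 221 and 174 CPM per kb and 12 of 13 detected genes lowest in replicate 1. Among them were tbx5a (6.47, 15.6 and 12.8), which specifies the fin bud, prrx1a (12.9, 32.7 and 28.5), a mesenchyme gene, and and2 (4.30, 24.3 and 9.89), an actinodin gene of the fin fold. The mesenchyme and cartilage list did not share this order. Of its 10 detected genes, 7 were lowest in replicate 10, 2 in replicate 1 and 1 in replicate 4. The part of the fin bud genes in the posterior hox levels was not tested.

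The receptor genes showed 1 gene far above the others. Of 443 receptor and ephrin genes, 242 (54.6%) were detected, with a median of 4.52 CPM per kb. cxcr4b, a receptor for the chemokine Cxcl12 that guides migrating cells, stood at 430, 384 and 386 CPM per kb, above the next gene by 1.65 ± 0.11 on the log2 scale in 3 of 3 libraries. Its copy cxcr4a was at 1.29 ± 0.33. ackr3b, the receptor that takes up the same chemokine, was at 106 ± 15, while the ligand genes cxcl12a and cxcl12b were at 12.3 ± 1.71 and 5.15 ± 0.90 CPM per kb.

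The axon guidance receptors were broadly detected. nrp1a, a co-receptor for semaphorins and Vegf, was at 131, 117 and 135 CPM per kb, and nrp2a at 57.0 ± 8.86. The plexin plxna3, which signals with neuropilins, was at 43.8 ± 2.75, and 9 of 11 plexin genes were detected. The Slit receptor genes robo3 and robo2 stood at 60.5 ± 2.00 and 34.6 ± 2.41, and the netrin receptor gene unc5cb at 54.1 ± 6.18. All 11 netrin receptor genes were detected. Ephrins are ligands that can also signal back into the cell that carries them. Of their 14 genes 13 were detected, and efna3b was highest at 72.5 ± 9.45, followed by efnb3b at 67.4 ± 10.5. ephb3a, the highest Eph receptor gene, was at 40.3 ± 6.72 CPM per kb.

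Receptors for growth factors and morphogens made up most of the rest of the upper ranks. acvr2ba, acvr1ba and tgfbr1b, receptors of the activin and Tgf-beta group, were at 120 ± 8.28, 117 ± 14.7 and 113 ± 7.86 CPM per kb, so their order was within the spread. All 26 genes for Wnt, Hedgehog and Notch receptors were detected, led by fzd10 (66.4, 109 and 67.7), notch1a (64.9 ± 2.76) and fzd7a (62.8 ± 12.2). met, which encodes the receptor for Hgf, stood at 41.6, 33.7 and 54.4 CPM per kb. ret, the signalling receptor for GDNF family ligands, stood at 48.1, 32.3 and 33.9. met was above ret in 2 of 3 libraries. The co-receptor gene gfra3 was close to ret at 36.4 ± 1.96, and gfra1a lower at 11.6 ± 1.58. hgfa, the ligand gene of Met, was at 1.1 ± 0.47, and gdnfa at 0.55 ± 0.16 CPM per kb. cntfr, of the ciliary neurotrophic factor receptor, was at 51.5 ± 4.1 and ngfrb, of the shared neurotrophin receptor, at 22.4 ± 1.83.

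Retinoic acid is made from vitamin A, bound by carrier proteins and nuclear receptors, and degraded by Cyp26 enzymes. crabp1b, a carrier protein gene, led at 480, 399 and 592 CPM per kb, while its copy crabp1a was at 0.97 ± 0.20. rarga, a retinoic acid receptor gene, was among the steadiest at 96.4, 94.2 and 95.7. Its partner gene rxrga was at 72.9 ± 11 and rarab at 27.0 ± 4.99 CPM per kb. The degrading enzyme genes differed in steadiness. cyp26c1 stood at 56.7, 50.0 and 95.1 and cyp26b1 at 66.2, 53 and 19.9, so that cyp26c1 was the higher of the pair in 1 of 3 libraries. cyp26a1 was at 1.75 ± 0.80 CPM per kb. The synthesis genes rdh10a and aldh1a2 were at 56 ± 11.6 and 18.3 ± 2.54, and the retinal reductase gene dhrs3b was at 58.6 ± 14.1.

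Among the transmitter lists, the cholinergic sum was the highest, and 1 gene carried most of it. slc18a3a, the vesicular acetylcholine transporter gene, stood at 224, 154 and 131 CPM per kb, of a list sum of 289, 202 and 180. slc5a7a, for choline uptake, was at 16.6, 14.2 and 11.6, and chata, for acetylcholine synthesis, at 14.6, 10.1 and 9.90. All 3 were highest in replicate 1. slc18a3a exceeded chata by 3.87 ± 0.12 on the log2 scale in 3 of 3 libraries. ache, which breaks acetylcholine down, was at 27.4 ± 5.56 CPM per kb when all of its exon bases are counted. With the length taken over unshared bases alone, the value is 45.5.

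The glutamate transporter genes slc17a6a and slc17a6b were at 4.42 ± 1.88 and 2.93 ± 1.07 CPM per kb, and the cholinergic list exceeded the glutamatergic list by 4.93 ± 0.20 on the log2 scale. slc32a1, the vesicular transporter gene of inhibitory neurons, was at 7.85 ± 1.1, the GABA enzyme genes gad1b and gad2 at 4.21 ± 1.58 and 2.11 ± 1.04, and the glycine transporter gene slc6a5 at 4.36 ± 1.79. chata and slc5a7a were nearer to slc32a1 than to slc18a3a in CPM per kb, and slc18a3a made up most of the cholinergic sum behind each list ratio. The cholinergic list exceeded the GABAergic list by 2.83 ± 0.07 and the glycinergic list by 3.99 ± 0.05. Each of these orders held in 3 of 3 libraries.

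**Figure D4:**
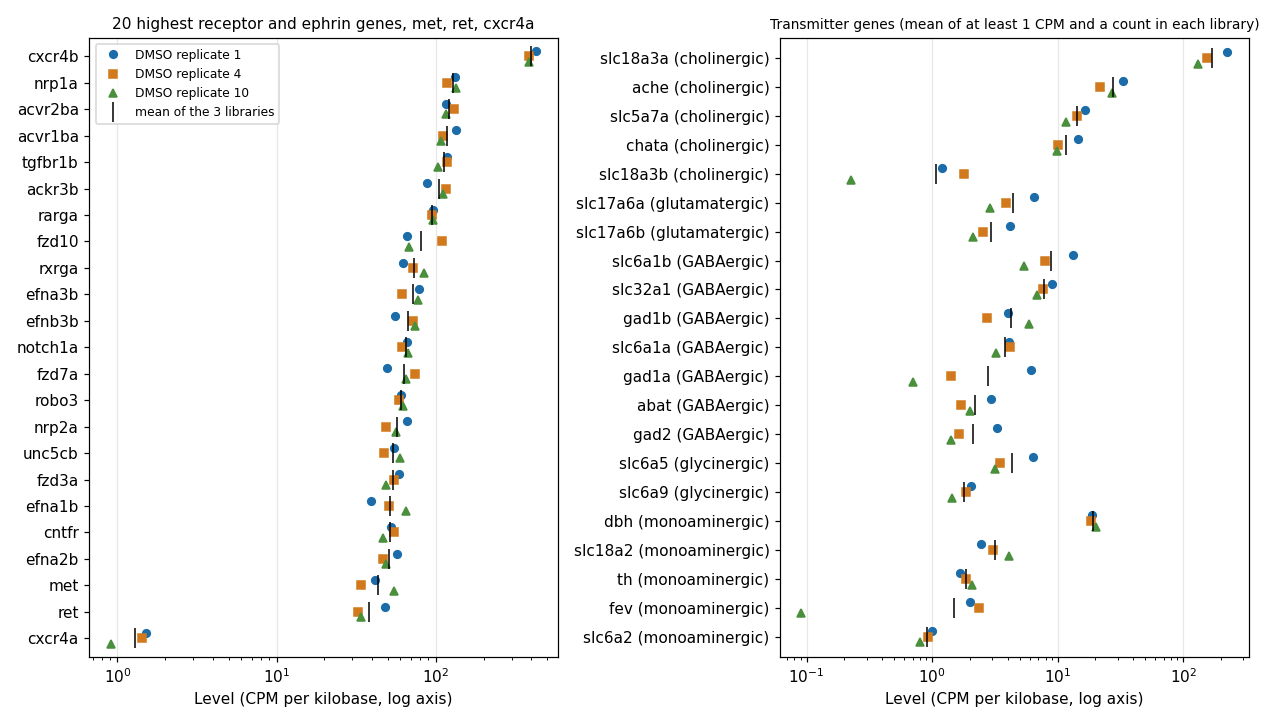
Level (x axes, CPM per kilobase, log scale) of the 20 highest receptor and ephrin genes with met, ret and cxcr4a (left) and of transmitter genes (right), with one symbol per DMSO replicate and a bar for the mean. cxcr4b and slc18a3a stand above the other genes of their panels in all libraries, and cxcr4a lies near 1.29.

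Of the nicotinic acetylcholine receptor genes, 8 of 26 were detected, with chrnb4 highest at 19.3 ± 3.04 CPM per kb. The muscarinic genes summed to 2.28 ± 0.39. The AMPA receptor gene gria2a was at 17.1 ± 1.37, the GABA-A receptor gene gabrb4 at 31.8, 20.2 and 17.9, and the glycine receptor gene glrbb at 20.5 ± 1.36 CPM per kb.

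Of 45 matched neuropeptide genes, 7 were detected. adcyap1b, which encodes PACAP, stood at 63.4, 44.6 and 44.2 CPM per kb. tac1, for substance P, was at 25.4, 25.9 and 43.2, and CALCB, the name table's symbol for a calcitonin gene-related peptide gene, at 23.9, 27.2 and 27.2. The somatostatin genes were a case of 1 library. sst1.2 had 1, 1208 and 0 counts and sst2 had 0, 877 and 0 in replicates 1, 4 and 10. The hormone genes of the endocrine pancreas ins (0.30, 4.23 and 0 CPM per kb), gcga (1.74, 6.18 and 0) and gcgb (7.22, 26.8 and 0) were also highest in replicate 4 and had no count in replicate 10. Their list of 11 genes was chosen after these values were seen. Its 4 detected genes could not include genes without a count in replicate 10, since detection needs 1 CPM in each library. Of these 4, 3 were highest in replicate 10 and 1 in replicate 4. The sum over all 11 genes, these hormone genes included, was 251, 399 and 296 CPM per kb in replicates 1, 4 and 10. The part of the hormone genes in the somatostatin counts was not tested. Genes of peptide processing were steady, with chga at 61.2 ± 5.95 and cpe at 42.0 ± 3.36 CPM per kb.

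The spread among libraries was small for most genes. Among the 9712 genes with a mean of at least 10 CPM, the highest library exceeded the lowest by 1.28-fold at the median, and the coefficient of variation beyond counting noise had a median of 12.2%. More than 2-fold lay 6.02% of the genes and more than 4-fold 0.752%, which was 73 genes. That count was 31 without replicate 1, 48 without replicate 4 and 30 without replicate 10, and it was 14 at a mean of at least 50 CPM. The median coefficient was 17.8% for the 384 transcription factors, 14.2% for the 150 receptors and 11.8% for the 83 ribosomal protein genes, of which 0 exceeded 2-fold. It also depended on level, at 22.4% for genes of 1 to 10 CPM and 9.58% for those of 100 to 1000 CPM. Without replicate 1 the median over all genes was 6.35%, but that value rests on fewer libraries than the 12.2% and is not directly comparable with it.

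The extremes of spread were named among genes whose symbol is not a clone name. On that basis the widest spread was in genes of blood, muscle, skin and pigment cells and in the somatostatin genes. The 15 widest were sst1.2 and sst2, the globin genes hbae1.3 and hbae3, the keratin genes krt91, krt5 and krt1-19e, the muscle genes myhz1.1, pvalb1, pvalb2, tnnt3b, atp2a1, ckmb and myl1, and the pigment enzyme gene tyrp1b. tyrp1b stood at 3.30, 46.5 and 0.59 CPM, while atp2a1, the muscle calcium pump gene, stood at 15.9, 137 and 3.23. Of these 15, 12 were lowest in replicate 10. The exceptions were both globin genes and sst2, which had no count in replicates 1 and 10. Among all 73 genes over 4-fold, 33 were lowest in replicate 10, 29 in replicate 1 and 11 in replicate 4. At the other end, kpna5, a nuclear import gene, stood at 104.5, 104.5 and 104.3 CPM. ints12, ddi2, suz12a, pomt2, yipf4, cep63 and sdhc followed, each with its highest library at most 1.00855-fold above its lowest. For all of these the coefficient of variation beyond counting noise was 0, so the order at this end lies within counting noise.

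**Figure D5:**
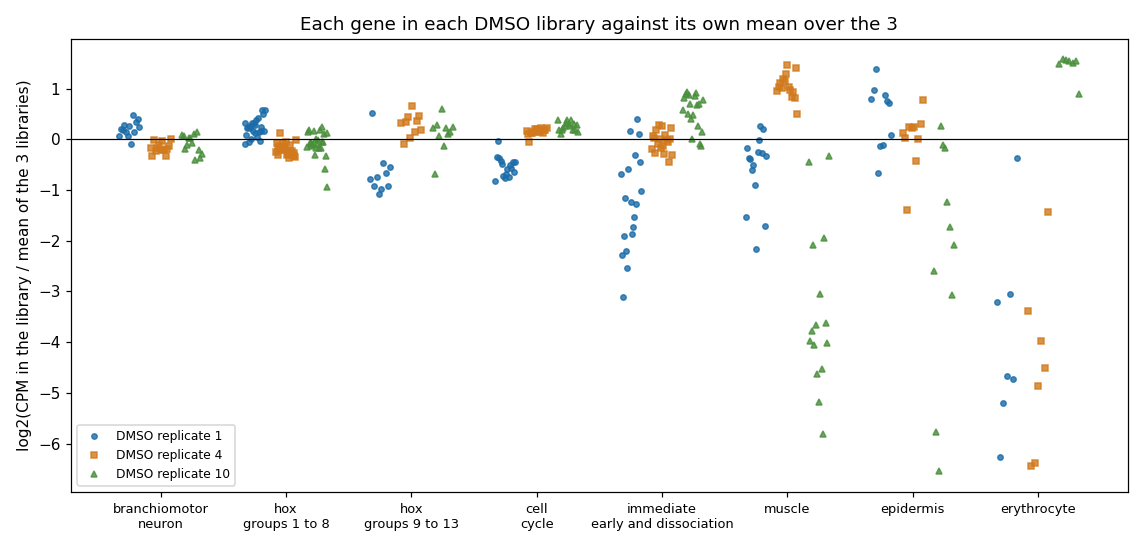
Each gene of 8 sets with a mean of at least 1 CPM, as log2 of its CPM in a library over its mean in all 3 (y axis), with one symbol per DMSO replicate and values under 3 counts set to 3 counts. Replicate 1 lies below the others for most cell cycle, immediate early and posterior hox genes, though not for hoxb9a, jund or hsp70l, for example. Replicate 10 lies low for most muscle genes and high for erythrocyte genes.

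A second pattern of spread set replicate 1 apart. It lay 2-fold below both other libraries for 112 genes and 2-fold above both for 66, against 6 and 21 for replicate 4 and 54 and 16 for replicate 10. Among 17 detected genes of the immediate early and dissociation list, 14 were lowest in replicate 1 and 13 were highest in replicate 10. junbb and fosab, whose products form the AP-1 factor, stood at 36.1, 257 and 340 and at 39.7, 202 and 339 CPM per kb. egr1 stood at 5.35, 15 and 17.5 CPM per kb. The heat shock gene hsp70l, the highest of the list, ran at 626, 584 and 533 and did not follow that order. Cell cycle genes were low in the same library, at 853, 1446 and 1574 CPM per kb in sum, while neuronal and branchiomotor genes were highest there. Replicate 1 thus had more RNA of neuronal genes, those of motor neurons among them, and less of cycling and immediate early genes in CPM. The excess was not limited to motor neuron genes. The glutamatergic list summed to 10.8, 6.74 and 5.14 CPM per kb and the GABAergic list to 42.7, 27.2 and 25.5. The glycinergic and cranial sensory lists were also highest in replicate 1. The list of other hindbrain neurons was highest in replicate 4 per kilobase (460, 475 and 367) but in replicate 1 in summed CPM (1031, 1004 and 733). Of its 21 detected genes, 11 were highest in replicate 1 and 8 in replicate 4. The monoaminergic list was highest in replicate 10, at 26.9, 27.0 and 27.7 CPM per kb. The part that cell mixture, sorting or handling had in this was not tested.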

How the data were processed

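RNA of sorted cells was amplified with SMART-Seq v4, made into Nextera XT libraries and sequenced on an Illumina HiSeq, per the labels' protocols. The authors counted fragments per gene and deposited the raw counts. featureCounts 1.6.0 was run in paired mode without strand on the Ensembl 95 annotation of GRCz11, per the file headers. The submitters' processing notes list STAR 2.5.2a and Subread 1.5.0, whose version differs from that header. A fragment that fits several genes or places was not counted under those options, which lowers overlapping genes and close copies, and antisense fragments are included.

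Of 32520 identifiers, 3319 had no symbol, and RefSeq (GRCz12tu) served for names alone. Families were matched by symbol prefix, less 44 genes of other families. CPM is the count over the library's total, and CPM per kilobase divides by the deposited length, merged exon bases per gene. A gene was detected at 1 CPM or more in each of the 3 libraries. The spread is the SD of CPM over its mean after Poisson noise is removed, and ratios use a floor of 3 counts, 0.128 to 0.147 CPM. Such floors cover counting error alone, since the libraries hold no molecular identifiers. On simulated data, limits were set only on how many changed and unchanged genes passed 4-fold. No limit was set on the coefficient of variation, so its closeness to the true spread is not shown. Named genes are the highest per length in each class, every hox gene, list members and the extremes of spread at a mean of at least 10 CPM. Clone-named genes were left out of those extremes. Members and lists were chosen with earlier results of these data known. Alternatives were edgeR 4.0.16 TMM factors, DESeq2 1.42.0 size factors, totals without the mitochondrial genome, unshared exon length, other minima and leaving out each library. The other 3 libraries were not used here.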

Additional observations from a re-analysis of the deposited data

How the results depend on the processing

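The levels of isl1a, phox2bb and tbx20, the 30 list sums, the list ratios, the 10-gene share, the count of detected genes and the 2 measures of spread were recomputed under other settings. Of 290 such alternative values, 276 stayed within 1 SD of the libraries or, for counts and the spread, within 1.5 times. Leaving out 1 of 3 libraries cannot move a mean by 1 SD. For levels, list sums and list ratios that setting therefore could not fail and says nothing about their stability. Of the 158 values under settings that kept all libraries, 148 stayed within the limits. The exceptions follow. Without the mitochondrial genome, the 10 most abundant genes took 5.51% of the counts, since the 16S RNA dropped out, and the monoaminergic sum was 27.7 CPM per kb. Over unshared exon length, the monoaminergic sum was 31.0 and the progenitor and glia sum 2313 CPM per kb, and the cholinergic list exceeded the GABAergic and glycinergic lists by 2.94 and 4.1 on the log2 scale. The median coefficient of variation was 18.7% with no filter on low counts and 20.6% as edgeR's common dispersion. With a library left out it was from 6.35% (without replicate 1) to 11.9% (without replicate 4). Those values rest on fewer libraries and are not directly comparable with the main one. Genes spread over 4-fold numbered 1405 with no filter, 14 at a mean of at least 50 CPM, and 30 (without replicate 10) to 48 (without replicate 4) with a library left out, since 2 libraries span less than 3. Without replicate 10, met over ret turned to -0.073 and cyp26c1 over cyp26b1 to -0.15 on the log2 scale, against 0.37 and 1.09 without replicate 1. Over unshared exon length sox11b rose to 1408 CPM per kb, which would make it the highest transcription factor, id1 to 508 and hoxb1a to 41.6. Genes under 3 fragments in every library were not measurable at this depth. No paired analysis was possible because a single group was described.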

Other observations

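Zebrafish keep many genes in pairs, named a and b, from a genome duplication in the ancestor of teleost fish. Pairs were taken where symbols differ only in a final a or b and the name table gives both genes 1 common symbol. Of 847 pairs with enough counts to compare, 313 (37.0%) had over 90% of the pair's level per length in 1 copy. The copy with the higher mean was the higher in each of the 3 libraries for 780 pairs (92.1%), and it was the a copy in 428 pairs and the b copy in 419. Among transcription factors the share over 90% was 25% of 44 pairs and among receptors 42.5% of 40. sall1a, a zinc finger gene, held 99.9% of its pair at 78.1 CPM per kb, rarga 99.4%, ebf1a 98.6%, tbx2b 95.9%, isl2a 95.5% and nr2f1a 95.1%. Among other genes, fscn1a, an actin bundling gene, stood at 633 CPM per kb against 0.49 for fscn1b, ckbb, a creatine kinase gene, at 1054 against 5.70 for ckba, stxbp1a at 225 against 1.6 for stxbp1b and smarca4a, a chromatin remodelling gene, at 219 against 0.99 for smarca4b. Even pairs also existed, such as mdka and mdkb, midkine genes, at 496 and 424, ywhabb and ywhaba at 462 and 426, and nr2f6b and nr2f6a at 73.9 and 68.8. Fragments that fit both copies were not counted, which lowers the copies that are most alike. Exon overlap with another gene can lower a single copy as well. Such pairs were kept in these counts, for example adnpb and adnpa, where up to 100% of a copy's exon bases are shared.

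Of 25 classic cadherin genes 11 were detected, and cdh2, which encodes N-cadherin, was at 189 ± 14.6 CPM per kb, cdh6 at 84.1 ± 3.65 and cdh11 at 20.3 ± 5.46. Of 58 protocadherin genes 43 were detected, led by pcdh10b at 45.2 ± 7.58. The sodium channel beta subunit genes scn3b and scn1ba were at 27.6 ± 5.79 and 21.2 ± 5.68, the pore gene scn8aa at 10.2 ± 0.99 and the potassium channel gene kcnc3a at 10.9 ± 1.34 CPM per kb. Of these channel genes, the calcium channel beta subunit gene cacnb4b was the highest at 69.1 ± 9.27. sost, which encodes a secreted Wnt inhibitor and was singled out after its values were seen, stood at 106, 217 and 234 CPM per kb in replicates 1, 4 and 10, the same order as the cell cycle genes.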
